A study of Mus musculus with 10 samples.

Results

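The genes described here are 10 genes of collagen maturation: the lysyl oxidases Lox, Loxl1, Loxl2, Loxl3 and Loxl4, the lysyl hydroxylases Plod1, Plod2 and Plod3, the procollagen chaperone Serpinh1, and P4ha1, a catalytic subunit of prolyl hydroxylase. They were chosen as a list by function, and each was read by its brightest probe set that names a single gene, over 10 arrays. Of the 10, 9 had such a probe set, out of 18193 genes tested. Loxl2 was read only by probe sets that also name Gm21451, so it is accounted for here without a value. The study compared 5 arrays of cultured fibroblasts from normal mouse lung with 5 arrays of carcinoma-associated fibroblasts (CAF), the fibroblasts of a tumour, both labelled as lung. Cells of both groups came out of mouse lungs, grew for 10 to 14 days in DMEM containing antibiotics and 10% serum, and were replated the day before RNA was taken. The labels used here give no strain, allele, age, sex or tumour model, and no agent other than this medium. Arrays of a group are titled as biological replicates, with no word on how animals map to cultures, so p-values measure the spread between these arrays.

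Collagen is made strong by chemical steps inside and outside the cell. In the endoplasmic reticulum, prolyl hydroxylase stabilises the triple helix, lysyl hydroxylases modify lysines that will later carry cross-links or sugars, and Serpinh1 binds and escorts the folded procollagen. After secretion, the lysyl oxidases, which are copper-dependent enzymes, oxidise lysines and hydroxylysines of collagen and elastin so that neighbouring molecules bond to each other. Lox, Plod2 and P4ha1 are known as genes that respond to low oxygen, and Serpinh1 as a heat shock gene, and stiff cross-linked collagen is a known feature of tumour stroma.

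Values are the deposited log2 expression levels made by the robust multi-array average (RMA), in which 1 unit is a 2-fold step within a gene. The label codes of normal replicates 1 to 3 begin with vs and those of every other array with ls, which the labels do not explain. Array medians lay between 6.76 and 6.80 in the normal and between 6.73 and 6.74 in the CAF group, and the SD over probe sets between 2.34 and 2.39 and between 2.41 and 2.44. The groups did not overlap in either measure. Markers of fibroblasts were bright in both groups, such as Col1a2, a chain of type I collagen, at 15.18 ± 0.21 and 15.02 ± 0.30 (SD, n = 5 normal and 5 CAF arrays), and Vim, the filament protein vimentin, at 14.73 ± 0.22 and 14.81 ± 0.06. Some markers of other cells were also bright in these cultures. The brightest 2 of the macrophage list, the mesothelial list and the pericyte and smooth muscle list are given here. Others of these lists were dimmer, such as Cd163 of macrophages (5.48 in normal, 5.46 in CAF) and Msln of mesothelium (7.07 and 6.89). The macrophage genes Lyz2, lysozyme, and Tyrobp, a signalling adaptor, read 14.76 ± 0.51 and 12.50 ± 1.68 in normal against 15.02 ± 0.28 and 12.88 ± 1.03 in CAF cultures. The mesothelial genes Upk1b and Upk3b read 11.29 ± 2.72 and 10.58 ± 3.31 in normal against 10.81 ± 1.44 and 9.51 ± 1.69 in CAF cultures. The smooth muscle genes Cnn1 and Des read 14.31 ± 0.32 and 12.52 ± 2.54 in normal against 14.45 ± 0.20 and 12.66 ± 1.33 in CAF cultures. In such bulk RNA, fewer cells of a type and less RNA per cell cannot be told apart.

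None of the 9 measured genes passed the test between CAF and normal fibroblasts (limma, adjusted p under 0.05 over all genes), against a background of 0.753% of genes called. For none of the 9 did the CAF values lie wholly above or below the normal values, which was so for 7.16% of all genes. At an unadjusted p under 0.05 there was 1 gene of the 9, Serpinh1, or 11.1%, against 22.3% of all genes. The differences, CAF minus normal on the log2 scale, ran from -0.52 for Loxl1 to 0.17 for Plod3, with 4 positive, 5 negative and a median of -0.12. The median over all genes was -0.04. For 7 of the 9 genes the 95% interval of the difference lay within a 2-fold change in either direction, as it did for 84.9% of all genes. The interval of Loxl1, -1.30 to 0.25, reached past a 2-fold decrease, and that of Loxl3, -0.99 to 1.14, past a 2-fold increase. A change of that size in that direction could not be seen or set aside with these arrays.

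**Figure D1:**
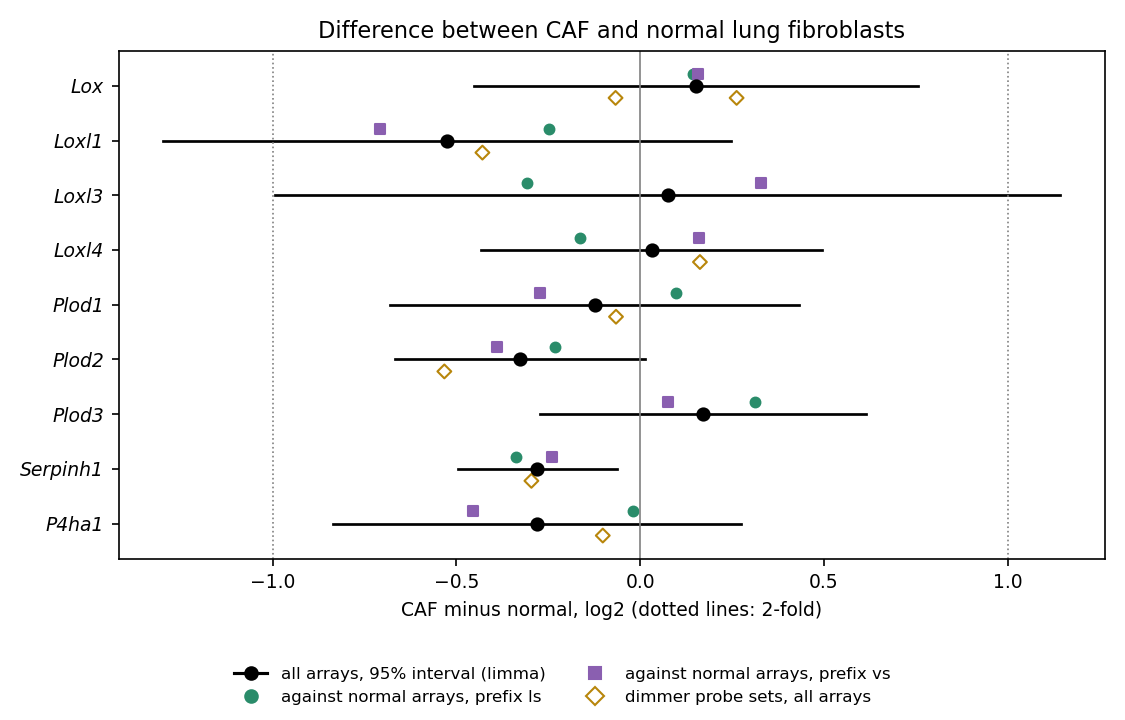
Difference between CAF and normal fibroblasts for each gene on the log2 scale (horizontal axis), with black points and lines for the limma estimate and its 95% interval over 5 and 5 arrays, filled coloured points for CAF against the normal arrays of 1 label prefix, and open diamonds for dimmer probe sets. The interval of Serpinh1, from -0.50 to -0.063, is the only one that does not cross 0, and its adjusted p is 0.139.

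Of the 9 genes, the chaperone Serpinh1, which acts in the endoplasmic reticulum, had the smallest p. It read 14.36, 14.46, 14.33, 14.44 and 14.52 on normal replicates 1 to 5 and 14.19, 14.40, 13.92, 14.24 and 13.96 on CAF replicates 1 to 5. Of the 5 CAF arrays, 4 lay below every normal array, and CAF replicate 2 lay within the normal range. The group means were 14.42 ± 0.08 and 14.14 ± 0.20 (SD, n = 5 each), a difference of -0.28 ± 0.10 (SE) with an adjusted p of 0.139 in limma. An unadjusted p as small as that of Serpinh1, 0.0167, was found for 12.0% of all genes. An exact 2-sided permutation of the arrays gave p = 0.0238 before and 0.160 after adjustment over all genes. The second probe set of Serpinh1, whose suffix _x_at marks probes that may bind other transcripts, had a difference of -0.30 ± 0.11.

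Because Serpinh1 had the smallest p, and is known to be driven by heat shock factor, the RefSeq sequence before its start (assembly GRCm38.p6, chr7:99353240-99353489, minus strand, 250 bases) is given here, with capitals for a match to ACGTG, the core of a hypoxia element, on either strand.
Serpinh1: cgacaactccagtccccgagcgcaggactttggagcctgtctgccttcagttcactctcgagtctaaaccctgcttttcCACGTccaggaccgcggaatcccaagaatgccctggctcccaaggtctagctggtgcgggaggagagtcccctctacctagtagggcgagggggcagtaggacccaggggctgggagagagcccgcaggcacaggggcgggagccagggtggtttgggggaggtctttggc
The match lies on the reverse strand, from -171 to -167 relative to the first transcribed base. The search used ACGTG and GCGTG for hypoxia and GAANNTTC for the heat shock element, on both strands, and no match overlapped another in this window. ACGTG is present in 16.6% of 32851 RefSeq windows of this length, GCGTG in 28.2% and GAANNTTC in 6.69%. A window was found for 5 of the 10 genes (Serpinh1, P4ha1, Plod1, Plod3 and Loxl4). That of P4ha1 lies partly inside the annotated P4ha1 gene, which starts 99 bases before the start used for the window, and that of Plod3 overlaps the gene Znhit1. GAANNTTC was not matched in the window of any of the 5. Only this exact form was searched, so the result does not show that a window holds no heat shock element. In the P4ha1 window ACGTG was matched 1 time and GCGTG 2 times, in that of Plod3 1 and 3 times, and in those of Plod1 and Loxl4 GCGTG was matched 1 time each.

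The lysyl hydroxylases did not pass the test. Plod2, which hydroxylates lysines of the collagen telopeptides and so sets the type of cross-link, read 13.26, 13.27, 12.60, 12.80 and 12.98 on normal replicates 1 to 5 and 12.76, 12.66, 12.88, 12.67 and 12.31 on CAF replicates 1 to 5. All 5 CAF arrays lay below the normal mean, and only CAF replicate 5 lay below every normal array. The difference was -0.33 ± 0.15 (SE), from 12.98 ± 0.29 to 12.66 ± 0.21 (SD, n = 5 each; limma adjusted p = 0.240), and the interval, -0.67 to 0.014, included no difference. The dimmer probe set of Plod2 had -0.53 ± 0.21, for which limma over every probe set gave an adjusted p of 0.171.

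Plod1, which hydroxylates lysines of the collagen helix, read 10.52, 11.41, 9.90, 10.03 and 10.45 on normal replicates 1 to 5 and 10.48, 10.46, 10.21, 10.34 and 10.21 on CAF replicates 1 to 5. All 5 CAF arrays lay inside the normal range. The difference was -0.12 ± 0.25 (SE; limma adjusted p = 0.794). It was 0.097 against the normal arrays whose label codes begin with ls and -0.27 against those that begin with vs. The sign of Plod1 thus depended on which normal arrays it was set against.

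Plod3, which also adds sugars to hydroxylysine, read 12.77, 12.66, 11.72, 12.08 and 12.21 on normal replicates 1 to 5 and 12.64, 12.27, 12.28, 12.72 and 12.37 on CAF replicates 1 to 5. The CAF arrays again lay within the normal range. Its difference of 0.17 ± 0.20 (SE; limma adjusted p = 0.639) had an interval of -0.27 to 0.61.

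P4ha1, whose enzyme hydroxylates prolines and so stabilises the triple helix, read 12.21, 12.62, 11.16, 11.39 and 11.74 on normal replicates 1 to 5 and 11.63, 11.52, 11.55, 11.60 and 11.41 on CAF replicates 1 to 5. The CAF cultures were tightly grouped inside a wide normal range. The difference of -0.28 ± 0.25 (SE; limma adjusted p = 0.527) was -0.021 with only the ls normal arrays as controls, -0.45 with only the vs ones, and -0.10 ± 0.23 for the dimmer probe set.

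**Figure D2:**
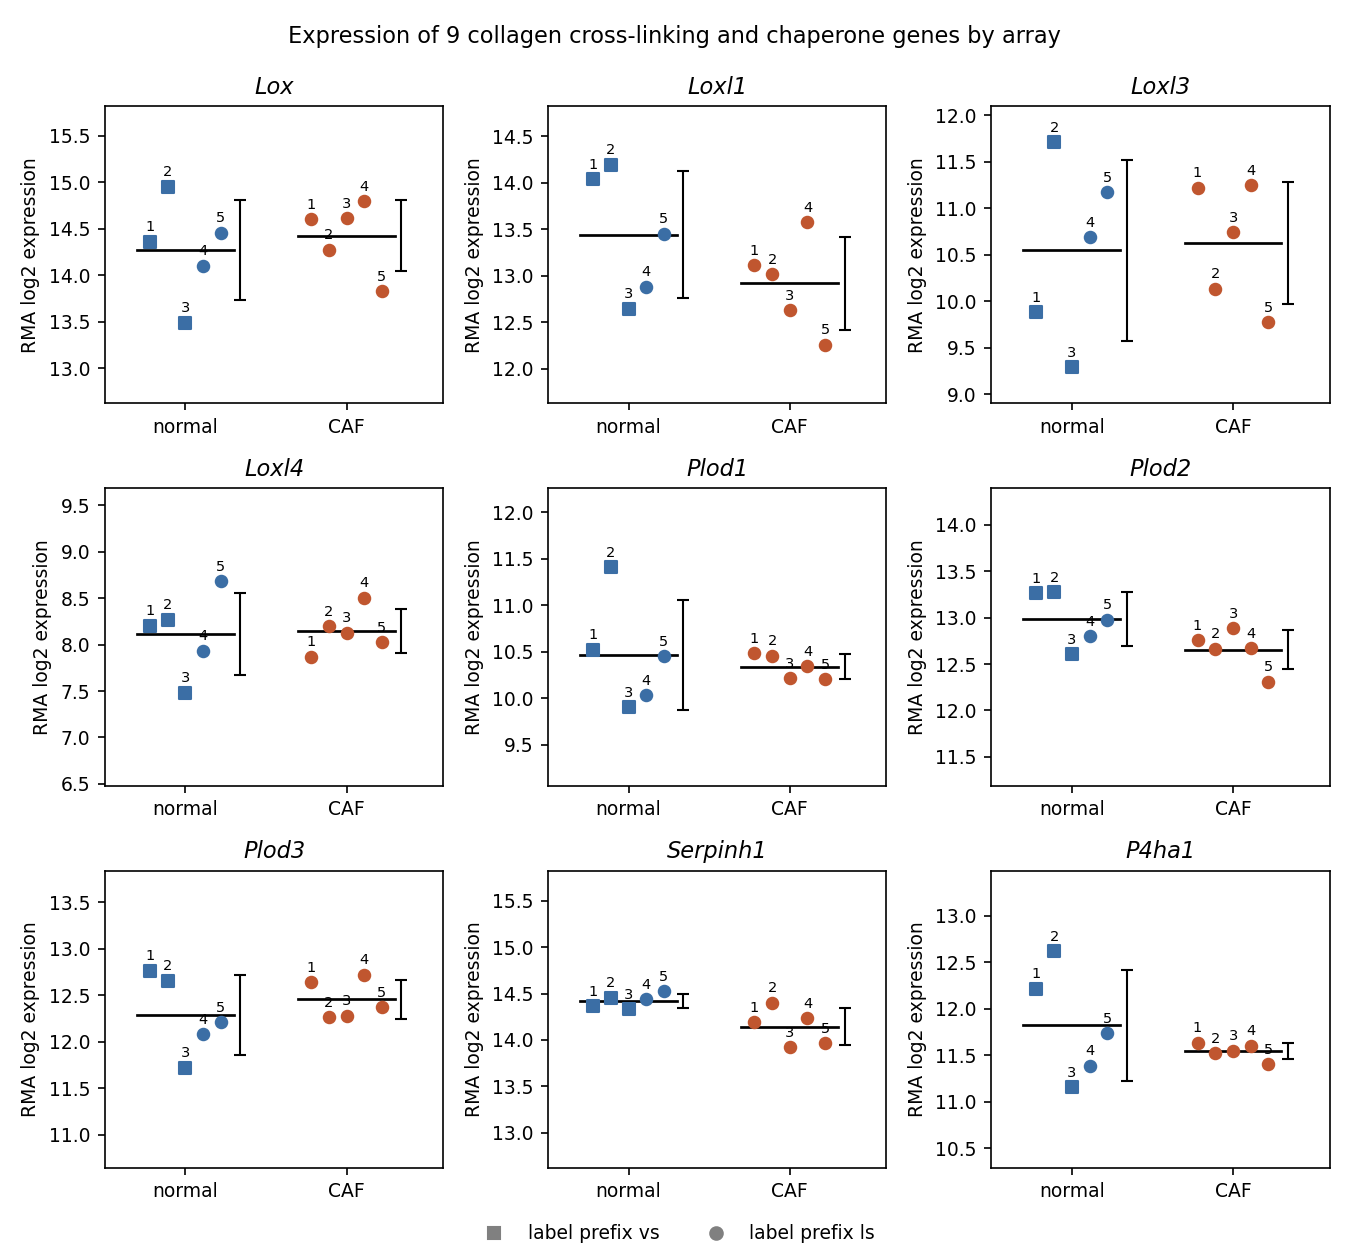
RMA log2 expression (vertical axis, the same span in every panel) of each gene on every array, with replicate numbers at the points, squares for label prefix vs, circles for ls, a line at the group mean and a bar of 1 SD beside it (n = 5 per group). Normal replicate 3 is the lowest normal point in all 9 panels, and the CAF points of P4ha1 sit between 11.41 and 11.63 inside a normal range of 11.16 to 12.62.

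The secreted lysyl oxidases had differences smaller than their spread between cultures, or close to it. Lox, the best known enzyme of the family, read 14.36, 14.95, 13.49, 14.10 and 14.46 on normal replicates 1 to 5 and 14.60, 14.27, 14.61, 14.79 and 13.83 on CAF replicates 1 to 5. All CAF arrays lay inside the normal range. The difference was 0.15 ± 0.27 (SE; limma adjusted p = 0.769), with an interval of -0.45 to 0.75. The other bright probe set of Lox had 0.26 ± 0.32 and a probe set with a mean of only 5.39 had -0.067 ± 0.19. Without normal replicate 3 the difference of Lox was -0.045.

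Loxl1, which is known for its role in elastic fibres, had the most negative difference of the 9. It read 14.04, 14.19, 12.65, 12.88 and 13.45 on normal replicates 1 to 5 and 13.11, 13.02, 12.63, 13.57 and 12.25 on CAF replicates 1 to 5. The 2 highest normal values were of vs arrays, and so was the lowest. CAF replicates 3 and 5 lay below every normal array. The difference was -0.52 ± 0.35 (SE; from 13.44 ± 0.68 to 12.92 ± 0.50, SD, n = 5 each), with a limma adjusted p of 0.391 and an interval of -1.30 to 0.25. Set against the 2 ls normal arrays it was -0.25, and set against the 3 vs arrays it was -0.71, and the dimmer probe set had -0.43 ± 0.37.

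Loxl3, a lysyl oxidase with scavenger receptor domains, had the largest SD of the 9 genes in both groups. It read 9.89, 11.71, 9.29, 10.69 and 11.18 on normal replicates 1 to 5 and 11.22, 10.14, 10.75, 11.25 and 9.77 on CAF replicates 1 to 5. The highest normal array was 5.37-fold above the lowest, and the highest CAF array 2.78-fold above the lowest. The difference, 0.075 ± 0.48 (SE; limma adjusted p = 0.941), had an interval of -0.99 to 1.14 and was -0.31 with the ls normal arrays as controls but 0.33 with the vs ones.

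Loxl4, of the same domain type, read 8.20, 8.27, 7.48, 7.93 and 8.68 on normal replicates 1 to 5 and 7.87, 8.19, 8.13, 8.50 and 8.03 on CAF replicates 1 to 5. The CAF values lay within the normal range. The difference was 0.031 ± 0.21 (SE; limma adjusted p = 0.943), with -0.16 from the ls and 0.16 from the vs controls, and its dimmer probe set had 0.16 ± 0.22.

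The normal cultures differed among themselves more than the CAF cultures did. The SD was larger in the normal group for 8 of the 9 genes, and for 71.1% of all genes. P4ha1 had an SD of 0.60 in normal and 0.089 in CAF cultures, 6.73 times as large, and Plod1 had 0.59 against 0.13, 4.54 times as large. A ratio of at least 4 was found for 6.90% of all genes. Serpinh1 was the exception, with an SD of 0.077 in normal and 0.20 in CAF cultures. These spreads are descriptions and were not tested, and since only normal arrays carry the prefix vs, spread and prefix cannot be told apart.

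Single cultures stood at the same end for many of the 9 genes. Normal replicate 3 was the lowest normal array for all 9 genes and the lowest of all 10 arrays for 6 of them, while over all genes it was the lowest normal array for 28.9%. Normal replicate 2 was the highest of all 10 arrays for 6 genes, and above the gene's own mean for all 9. In CAF, replicate 5 was the lowest for 6 of the 9 genes, against 16.3% of all genes, and replicate 4 the highest for 5. Shares over all genes were not counted for the highest arrays or for the lowest of all 10. As a median over the 9 genes, the deviation from a gene's own mean was -0.53 on normal replicate 3, 0.60 on normal replicate 2, -0.32 on CAF replicate 5 and 0.35 on CAF replicate 4. Among the normal cultures Serpinh1 had the smallest SD, with deviations of 0.047 to 0.24.

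**Figure D3:**
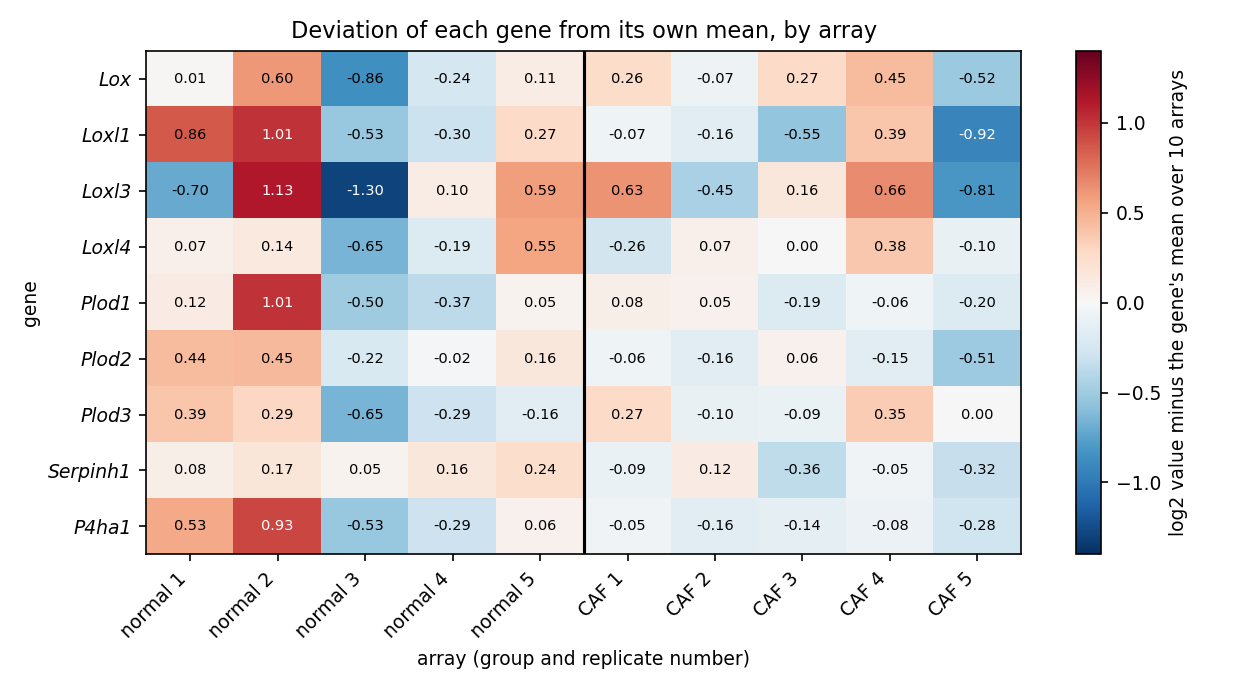
Log2 value of each gene (rows) on each array (columns) minus that gene's own mean over 10 arrays, red for above and blue for below, with the number in each cell. The column of normal replicate 2 is above 0 for all 9 genes, that of normal replicate 3 is below 0 for 8, and that of CAF replicate 5 is below 0 for all 9.

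The cell type markers read on the same arrays also differed between cultures. The mean of 10 fibroblast markers was 13.18, 14.52, 12.66, 13.18 and 13.04 on normal replicates 1 to 5 and 14.01, 12.91, 12.78, 13.48 and 12.55 on CAF replicates 1 to 5. Normal replicate 3 and CAF replicate 5, where the 9 genes were low, had the lowest fibroblast marker mean of their groups, and normal replicate 2, where they were high, the highest. CAF replicate 4 had a median deviation of 0.35, with 4 of the 9 genes below their own means. Its fibroblast marker mean was 13.48, below that of CAF replicate 1 at 14.01. The mean of 12 macrophage markers was 12.38, 9.07, 11.55, 10.54 and 9.62 on normal replicates 1 to 5 and 12.38, 10.62, 10.01, 11.08 and 11.78 on CAF replicates 1 to 5. The mean of 6 mesothelial markers was 10.76, 6.01, 10.04, 8.88 and 10.20 on normal replicates 1 to 5 and 7.67, 9.57, 8.24, 7.06 and 9.11 on CAF replicates 1 to 5. Normal replicate 2 thus had the lowest macrophage and the lowest mesothelial marker level of all 10 arrays.

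Between the groups, 0 of the 10 fibroblast, 12 macrophage and 6 mesothelial markers passed the test in limma, with 0, 0 and 1 of them at an unadjusted p under 0.05 (22.3% of all genes). That 1 was the mesothelial gene Lrrn4, at -2.99 ± 1.15 (SE; limma adjusted p = 0.170). Differences were negative for 7 fibroblast markers (median -0.23), positive for 11 macrophage markers (median 0.52) and negative for all 6 mesothelial markers (median -0.34). Over all genes 7777 were positive and 10416 negative. The summed log2 levels of these lists overlapped between the groups. The sum ran from 126.6 to 145.2 in normal and from 125.5 to 140.1 in CAF cultures for fibroblast markers, from 108.8 to 148.6 and from 120.1 to 148.6 for macrophage markers, and from 36.0 to 64.5 and from 42.4 to 57.4 for mesothelial markers. The part of culture makeup in the levels of the 9 genes was not tested. Without normal replicate 3, limma again called 0 of the 9 genes, with 2 at an unadjusted p under 0.05. Mean levels per array of 10 epithelial markers (brightest Krt18 and Krt8) were 6.70 to 7.74 in normal and 6.46 to 7.44 in CAF cultures. They were 6.11 to 6.23 and 5.98 to 6.12 for 8 endothelial markers (Kdr and Cldn5). For 8 pericyte and smooth muscle markers (Cnn1 and Des) they were 8.81 to 9.50 and 9.42 to 9.87. For 5 lymphocyte markers (Cd3e and Cd79a) they were 6.37 to 6.49 and 6.23 to 6.39. In the last 3 lists the 2 ranges overlapped only at their ends. Differences were positive for 2 of 10, 3 of 8, 7 of 8 and 0 of 5 markers of the 4 lists. In limma 0 of these genes passed the test. At an unadjusted p under 0.05 there were 3 of 10, 4 of 8, 2 of 8 and 2 of 5, against 22.3% of all genes. Kcnj8 of the pericyte list lay wholly higher in CAF (1.32 ± 0.28, SE; limma adjusted p = 0.0589). Epcam and Emcn lay wholly lower, and groups without overlap were found for 7.16% of all genes.

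**Figure D4:**
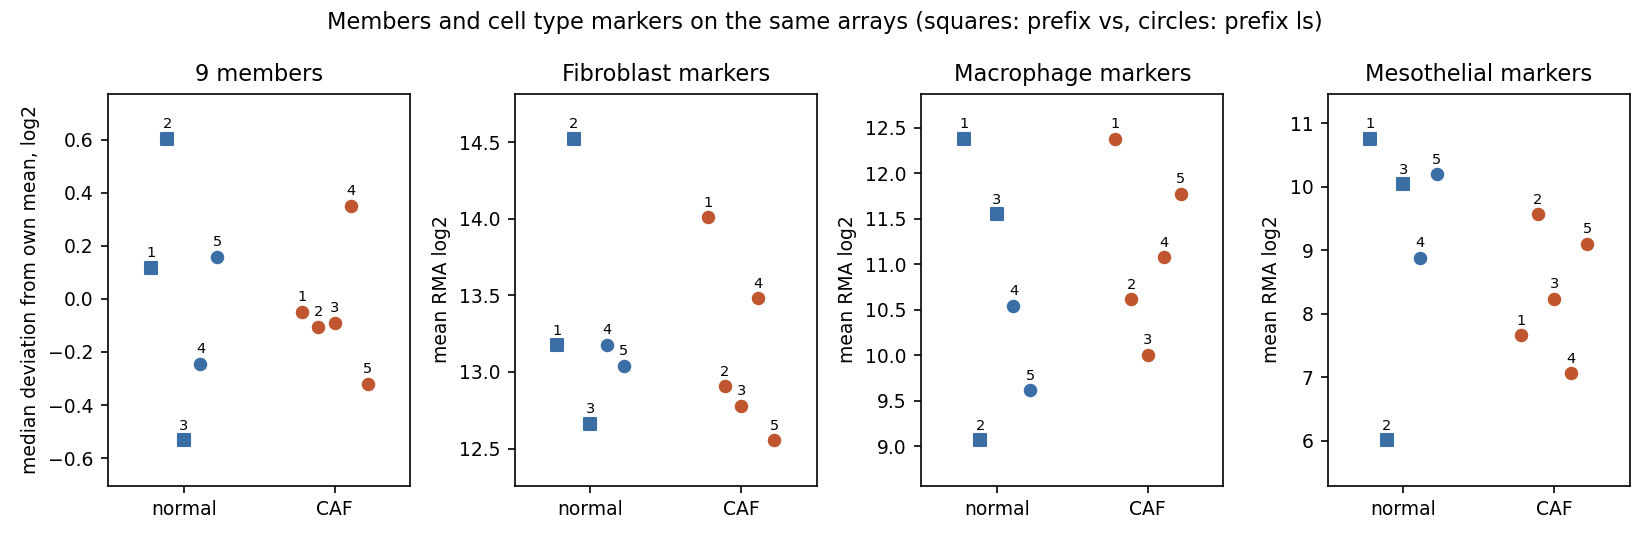
For each array (numbered points, 5 normal and 5 CAF), the median deviation of the 9 genes from their own means on the log2 scale and the mean RMA log2 level of 10 fibroblast, 12 macrophage and 6 mesothelial markers. Normal replicate 2 is highest in the first 2 panels (0.60 and 14.52) and lowest in the last 2 (9.07 and 6.01), and the vertical axes differ between panels.

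The other genes of collagen maturation did not pass the test either. Over 42 genes of 3 lists, limma called 0, against 0.753% of all genes, so that a count of 0 is near the background. At an unadjusted p under 0.05 there were 4 of the 42 (9.52%), against 22.3% of all genes, and the lowest adjusted p was 0.0598. Of 14 partners in the endoplasmic reticulum 0 passed, with a median difference of -0.016. Tmem38b, an ion channel of that compartment, had 0.55 ± 0.18 (SE; limma adjusted p = 0.122), the prolyl isomerase Fkbp14 0.62 ± 0.25 (adjusted p = 0.183; 0.27 as the mean of its probe sets) and Colgalt2, which adds galactose to hydroxylysine, -0.26 ± 0.11 (adjusted p = 0.225; -0.16 with the ls controls). These were the 3 partners with the smallest p, and their 5 CAF values overlapped the 5 normal ones. Colgalt2 was dim, with means of 6.24 in normal and 5.98 in CAF cultures, below the array medians.

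Genes that export procollagen and cut its ends had a median difference of 0.063, with 0 of 14 called. Sec23a, a coat protein of vesicles leaving the endoplasmic reticulum, had 0.29 ± 0.11 (SE; limma adjusted p = 0.156), Creb3l2, a transcription factor of the secretory pathway, 0.43 ± 0.20 (adjusted p = 0.241) and Adamts3, a procollagen protease, -0.25 ± 0.13 (adjusted p = 0.275; -0.10 as the mean of its probe sets). Adamts3 was dim, with means of 6.12 in normal and 5.86 in CAF cultures, below the array medians.

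The substrates of the lysyl oxidases and the proteins that assemble with them had 0 of 14 called and a median of -0.097. Eln, elastin, read 7.68, 8.07, 7.53, 7.71 and 7.75 on normal replicates 1 to 5 and 7.26, 7.43, 7.24, 7.28 and 7.25 on CAF replicates 1 to 5. Every CAF value lay below every normal value, and groups without overlap were found for 7.16% of all genes. The difference of -0.46 ± 0.10 (SE) had a limma adjusted p of 0.0598, just outside the threshold. Eln was not bright, with a mean level at the 43.7th percentile of genes. Without the dimmest 40% of genes, the median difference over all genes was 0.052 in place of -0.04. The limma adjusted p of Eln was then 0.0745. Col3a1, type III collagen, had -0.63 ± 0.32 (adjusted p = 0.276). Its size depended on the probe set, at -1.59 for the one with the highest SD (adjusted p = 0.143) and -1.11 for the mean of its probe sets. Dcn, the small proteoglycan decorin, had 0.72 ± 0.44 (adjusted p = 0.353), with 1.35 from the ls and 0.29 from the vs controls, 0.35 for the mean of its probe sets and 1.19 with array weights (adjusted p = 0.0559). This list shares Col1a1, Col1a2, Col3a1, Dcn and Lum with the fibroblast markers.

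Genes known to respond to low oxygen or to heat shock were read beside the 9 genes, and 6 of these 31 (19.4%) had an unadjusted p under 0.05, against 22.3% of all genes. Of 19 hypoxia genes 0 passed, with a median of -0.052. Vegfa, the endothelial growth factor, had 1.12 ± 0.43 (SE; limma adjusted p = 0.172), Pdk1, which inhibits pyruvate dehydrogenase, -0.84 ± 0.37 (adjusted p = 0.219; -0.055 with the ls and -1.37 with the vs controls) and Ldha, lactate dehydrogenase, -0.23 ± 0.10 (adjusted p = 0.221). The 3 hypoxia genes with the smallest p thus had differences of both signs. Of 12 heat shock genes 0 passed, with a median of 0.14. Differences were positive for 9 of them, against 7777 of 18193 over all genes. The 3 negative ones, Hspa1b at -0.42, Hspa1a at -0.33 and Hspe1 at -0.092, had the sign of Serpinh1. The chaperones Hspa4l and Hsph1 had 0.62 ± 0.17 (adjusted p = 0.0938) and 0.87 ± 0.27 (adjusted p = 0.118), and Hsp90aa1 had 0.26 ± 0.11 (adjusted p = 0.210). With the ls controls Hsph1 had 0.45 and Hsp90aa1 0.089.

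**Figure D5:**
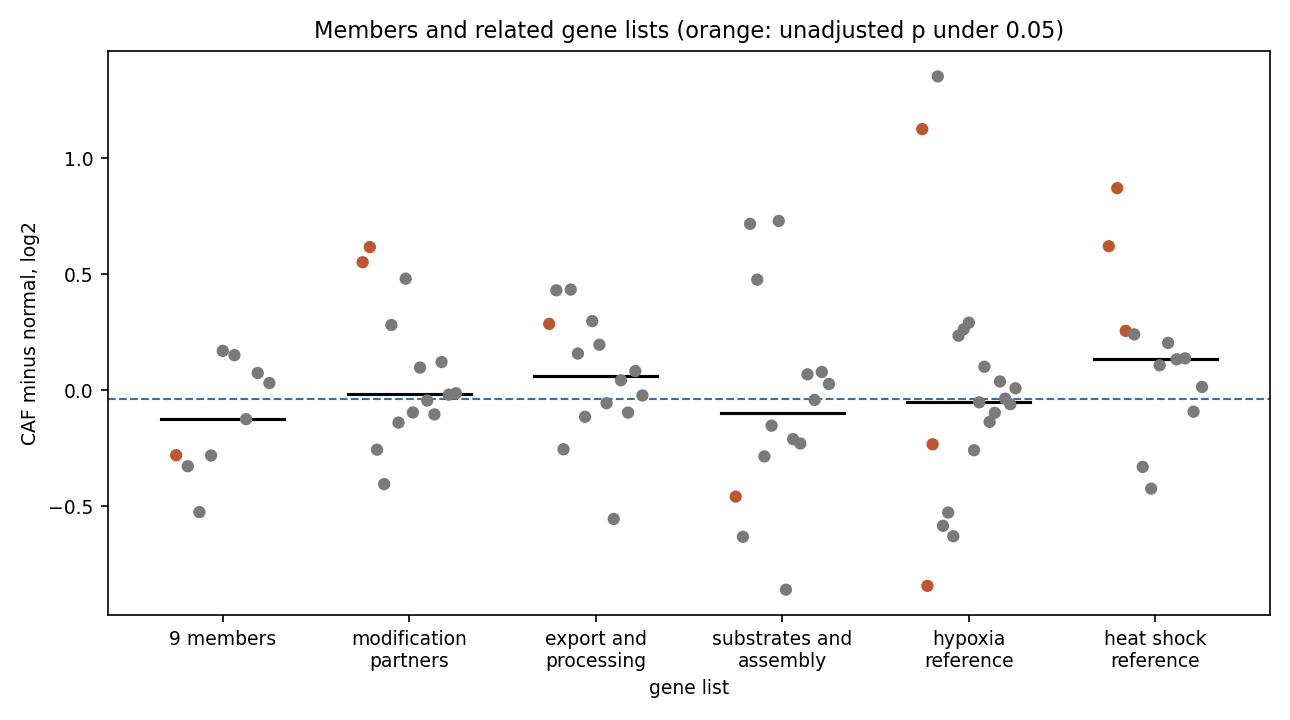
Difference between CAF and normal fibroblasts on the log2 scale (vertical axis) for the 9 genes and for 5 lists of related genes, each point 1 gene, orange for an unadjusted limma p under 0.05, with a black line at the list median and a dashed line at the median of all genes (-0.04). The list medians lie between -0.12 for the 9 genes and 0.14 for the heat shock genes, and no point passed the test after adjustment.

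The genes whose pattern was most like 2 of the 9 genes were named by the root mean square difference between 2 profiles over the 10 arrays, each centred on its own mean. Nearest to Serpinh1 were Ap3b2 (0.071), Nrap (0.080) and Rbfox1 (0.086), where the median over genes was 0.302. All 3 were dim, with normal means of 5.79 to 6.80, and their differences of -0.21, -0.25 and -0.24 did not pass the test. Nearest to Plod3 were Pip4k2b (0.091), Pi4ka (0.12) and Tanc2 (0.12), where the median over genes was 0.373, with differences of 0.19, 0.32 and 0.25 that did not pass either.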

How the data were processed

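Total RNA of 10 cultures was hybridised as biotin-labelled cRNA, 6 ug each, to 1-colour Affymetrix mouse arrays. The authors' deposited values are log2 expression, made with RMA in Affymetrix Expression Console per the submitters' processing notes, which also name limma. RMA subtracts background, quantile-normalises and summarises probe sets, so each value is relative to the rest of its array, and it gives no detection call. The medians and SDs of the arrays still differed slightly between the groups. No depth applies to arrays, and their number, 5 per group, limits the precision.

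Groups came from the titles. Of 45101 probe sets, 64 controls were left out and 34945 of the rest had 1 gene symbol, 932 several and 9160 none. Symbols were updated through Entrez numbers to the GRCm38.p6 gene table (34741 matched). The single-symbol probe set with the highest mean stood for each gene. R 4.3.3 and limma 3.58.1 (lmFit, eBayes, no term but group) gave a test for each of the 18193 genes, with p-values adjusted by Benjamini-Hochberg, so every adjusted p is over all genes unless stated. The script was tested on simulated data.

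The members and lists were chosen with earlier results of these data known. Of 138 list entries 132 were matched. Named were all measured members, the 3 genes of each related list with the smallest p, the 2 brightest genes of each marker list, and the 3 genes nearest in pattern to the member with the smallest p in each direction. Some other markers were also named, for their level, p or lack of overlap between the groups. Label codes of normal replicates 1 to 3 begin with vs, and those of all other arrays with ls. The labels do not explain these prefixes. Alternatives were other scalings, probe set rules, filters, priors, weights, prefix and replicate terms, single arrays left out, and an exact permutation.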

Additional observations from a re-analysis of the deposited data

Results flagged for a closer look

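In 2 genes named beside the list, 1 CAF array stood far from the other 4 of its group relative to the group's range. Eln read 7.43 on CAF replicate 2 and at most 7.28 on the others, and Vegfa read 11.53 on CAF replicate 2 and at least 12.15 on the others. None of the groups of the 9 measured list genes had such an array. Of 48 groups examined, chance flags about 1 in 20.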

How the results depend on the processing

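Under the 22 alternatives fitted with limma, 0 of the measured genes of the list were called, with 0 to 2 of them at an unadjusted p under 0.05 and lowest adjusted p-values of 0.0650 to 0.328. The exact permutation called 0 as well, but its smallest p, 0.00794, gave no adjusted p below 0.111 over all genes, so it could call none. Without probe sets that carry a suffix, Serpinh1 had no value. Leaving out 5 alternatives that do not alter a difference and counting the prefix term and the ls arrays once, 17 of 153 differences had the opposite sign, those of Lox, Loxl3, Loxl4 and Plod1. Loxl3, Loxl4 and Plod1 had -0.31, -0.16 and 0.097 with the label prefix as a term and the same values against the ls normal arrays. They had -0.065, -0.066 and 0.0094 with array weights, and Loxl3 and Loxl4 had -0.026 and -0.077 after quantile normalisation. Leaving out 1 array at a time gave -0.045 to 0.32 for Lox, -0.24 to 0.37 for Loxl3, -0.13 to 0.17 for Loxl4 and -0.26 to 0.11 for Plod1. Rbfox1 had 0.070 without suffixed probe sets.

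The 137 genes called over the whole array (102 higher, 35 lower in CAF) became 90 after quantile normalisation (41 higher, 49 lower), 285 with arrays centred on the median (250 higher, 35 lower), 47 without dim genes, 235 with the probe set of highest SD, 46 with a trended robust prior and 1597 with array weights. The count was 1 against the ls normal arrays alone and 95 (86 higher, 9 lower) against the vs normal arrays alone. It was 0 with the prefix as a term (limma, 2649 genes at an unadjusted p under 0.05), 0 with the replicate block (limma, 3017 genes) and 0 in the exact permutation (4070 genes). Leaving out 1 array at a time gave 0 to 166. The related lists had 4 called genes with array weights, among them Eln (adjusted p = 0.0200), Tmem38b (0.0328) and Vegfa (0.0438), and 0 to 1 without 1 array. The ranges of adjusted p over alternatives were 0.0200 to 0.306, 0.0328 to 0.341 and 0.0438 to 0.401. The labels do not say whether replicate numbers pair the arrays. Correlations between the deviations of same-numbered arrays ran from -0.53 to 0.34 and were above 0.1 in 1 of 5 pairs. Of 10 arrays, 2 correlated best with their own number. With 5 arrays per group this cannot settle whether cultures were paired. The causes of these changes were not tested.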
